A study of Saccharomyces cerevisiae with 4 samples.

Results

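The arms of chromosome VIII of the budding yeast *Saccharomyces cerevisiae* were described here peak by peak, as a BrdU incorporation profile of *rif1Δ* cells set against one of *WT* cells. The members were the 50 bp bins of the profile between 20000 and 85500 on the short left arm and between 125700 and 542600 on the long right arm (genome release R64), which leaves out the 20 kb at each chromosome end and the stretch around the centromere (CEN). They numbered 9648 of the 243150 bins of the series, over 65.5 kb of left arm and 416.9 kb of right arm.

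The series held 4 BrdU-IP-Seq libraries, 2 of *rif1Δ* and 2 of *WT*. Cells growing in YEPD were held in G1 with 7.5 nM α-factor for 4 h at 23 °C and then released by pronase (200 µg/mL) into hydroxyurea (HU) at 0.2 M and BrdU at 400 µg/mL. DNA was taken at 45 min, and the DNA that had incorporated BrdU was immunoprecipitated and sequenced. Both strains were *MATa* cells of the W303 background with *bar1Δ::hisG*, the BrdU-incorporation cassette *LEU2::BrdU-Inc* and the marker alleles *can1-100*, *trp1-1*, *his3-11,15*, *ura3-1* and *ade2-1*, and in *rif1Δ* the *RIF1* gene had been replaced by a KanMx cassette. The deposited profile has 1 column per strain, the authors' mean of 2 libraries, so no value below has a replicate error and no difference between the strains could be tested. The depth of the libraries is unknown.

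An origin of replication, called an autonomously replicating sequence (ARS) in yeast, is loaded with the Mcm helicase in G1 and fires in S phase once the kinase DDK has phosphorylated that helicase. HU starves the forks of nucleotides, so that they stall near the origins that have fired, and the S-phase checkpoint then holds back origins that have not. BrdU incorporated in HU therefore marks the origins that fire early. Rif1 is a telomere-binding protein that brings protein phosphatase 1 to chromatin, where the phosphatase opposes DDK.

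Over the *RIF1* gene itself, on chromosome II, the mean signal was 0.433 in *rif1Δ* and 3.09 in *WT*, as a deletion of it requires. Over all nuclear bins the mean signal was 12.1 in *rif1Δ* and 12.6 in *WT*. The scaling of one strain to the other is not given in the sources used here. Bringing both to the same total would add 0.06 to every log2 ratio, and bringing both to the same level between the peaks of the chromosome VIII arms would take 0.06 away.

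The arms of chromosome VIII had far more places of strong BrdU incorporation in *rif1Δ* than in *WT*, and of the 4 strongest *WT* peaks 3 lay within 2-fold of their *WT* signal in *rif1Δ*, while ARS807 was lower. A peak was a local maximum of at least 20, at least 2 kb from the next and rising over its surroundings by at least 50% of its height, and its signal was the mean of the bins within 500 bp of the summit. There were 16 peaks, 4 on the left arm and 12 on the right. Of these, 14 were called in *rif1Δ* and 8 in *WT*, with 6 called in both. With a height of at least 10 in place of 20 the numbers were 19 in *rif1Δ* and 15 in *WT*. With a height of at least 40 they were 13 in *rif1Δ* and 4 in *WT*, so the difference in number depended on the height asked for. *rif1Δ* alone had 8 of the 16, or 50%, where 35.8% of the 344 peaks on the arms of all 16 chromosomes were called in *rif1Δ* alone. *WT* alone had 2, or 12.5%, where the share over all arms was 11.6%.

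**Figure D1:**
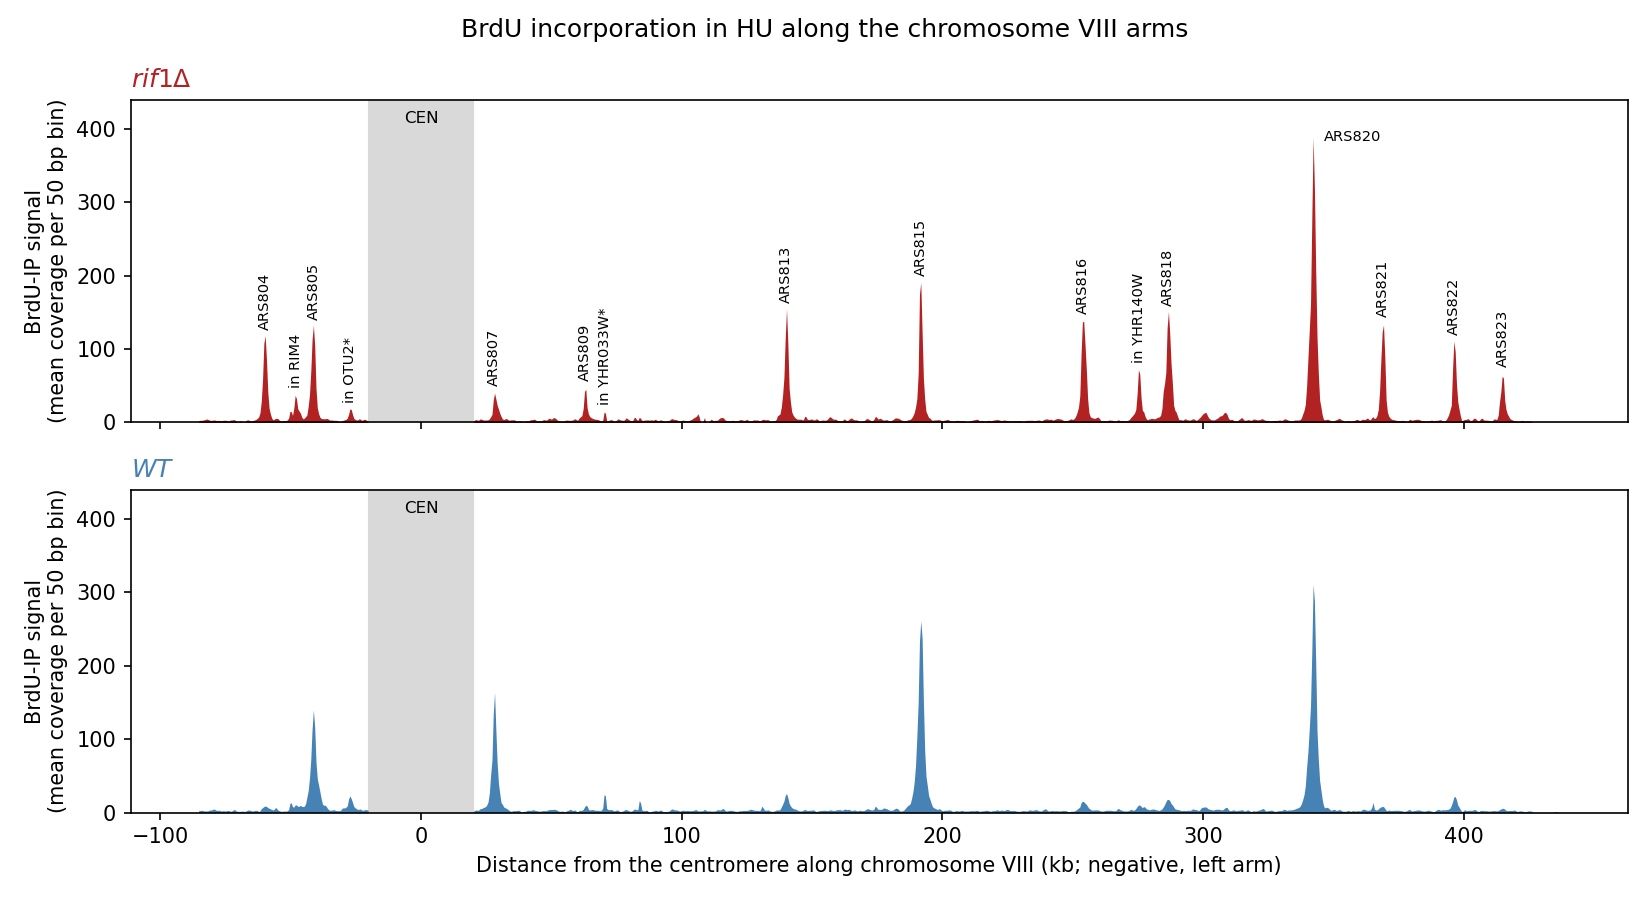
BrdU-IP signal along chromosome VIII in *rif1Δ* (top) and *WT* (bottom), as means over 500 bp, against distance from the centromere in kb with the left arm negative; the grey band marks the stretch around CEN that was left out, and an asterisk marks a peak with no listed origin. *rif1Δ* has 14 called peaks along the arms, while the tall *WT* peaks are ARS805, ARS807, ARS815 and ARS820. Within 2 kb of them lies 28.7% of the arm signal in *rif1Δ* and 48.5% in *WT*. They were picked as the strongest in *WT*, so a larger share in *WT* was largely set in advance.

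The ratio of the strains, log2((*rif1Δ* + 1)/(*WT* + 1)), had a median of 2.21 over the 16 peaks, against 0.37 over the peaks of all chromosome arms. The signal was more than 2-fold higher in *rif1Δ* at 10 of the 16 peaks, or 62.5%, where 40.4% of all arm peaks were. It was more than 2-fold lower at 1 peak, or 6.25%, where 7.85% of all arm peaks were, and it lay within 2-fold at the other 5. Of the 16 peaks, 14 lay within 2 kb of an origin listed by the study.

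The 8 peaks called in *rif1Δ* alone all sat at listed origins, 6 with an ARS name and 2 without. Their signals ran between 34.4 and 147 in *rif1Δ*, with a median of 91.4, and between 5.71 and 17.8 in *WT*, with a median of 9.55. The lowest of the 8 in *rif1Δ* was thus higher than the highest in *WT*. The calls largely set this, since these peaks were picked for a height of at least 20 in *rif1Δ* and no call in *WT*. These ranges and the ratios describe the picked peaks and are no separate support for a difference. Their log2 ratios ran between 1.66 and 3.80, with a median of 3.03.

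ARS821 had the largest ratio on these arms. Its signal was 128 in *rif1Δ* and 8.20 in *WT*, a log2 ratio of 3.80. The summit, at 474575, lies in a gap of 167 bp between the convergent sporulation genes *SSP1* and *PFS1*. ARS821 ranked 6 among the 16 peaks by signal in *rif1Δ* and 15 in *WT*.

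ARS804, the peak of the member bins nearest the left end, stood 45.6 kb from it. The signal was 115 in *rif1Δ* and 8.62 in *WT*, a log2 ratio of 3.59. Its summit at 45625 is just inside *ECM29*, whose product tethers parts of the proteasome, while the listed origin (45589 to 46076) runs out of that gene's end at 45690. The same pattern held at the other extreme of these peaks, at ARS823, 42.2 kb from the right end. There the signal was 61.1 in *rif1Δ* and 5.71 in *WT*, a log2 ratio of 3.21 at a summit of 520475, between *CRG1* and YHR210C, and this was the lowest *WT* signal of the 16 peaks.

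ARS816, the unnamed origin in YHR140W and ARS818 lie one after another on the right arm. ARS816, at 359475 between YHR125W and *ANS1*, had 137 in *rif1Δ* and 15.2 in *WT*, a log2 ratio of 3.09. The unnamed origin (380153 to 382157) had its peak at 380875, inside YHR140W, with 68.0 in *rif1Δ* and 10.2 in *WT*, a log2 ratio of 2.62. ARS818, at 392225 between *CRP1*, which encodes a protein that binds cruciform DNA, and *MRPL6*, which encodes a mitochondrial ribosomal protein, had 147 in *rif1Δ* and 17.8 in *WT*, a log2 ratio of 2.98. In *rif1Δ* ARS818 was the third strongest peak of these arms, and in *WT* it ranked 9.

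The lower signals of this group were at ARS809 and at an unnamed origin in *RIM4*. ARS809, at 168525 inside *YHI9* and close to *SLT2*, the MAP kinase of the cell wall pathway, had 42.8 in *rif1Δ* and 8.89 in *WT*, a log2 ratio of 2.15. The peak in *RIM4*, which encodes an RNA-binding protein of meiosis, had 34.4 in *rif1Δ* and 10.2 in *WT*, a log2 ratio of 1.66. Its summit was at 57425, between the much stronger ARS804 and ARS805. Averaged within 2 kb in place of 500 bp its log2 ratio was 0.98, so that 9 peaks in place of 10 were more than 2-fold higher in *rif1Δ*.

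**Figure D2:**
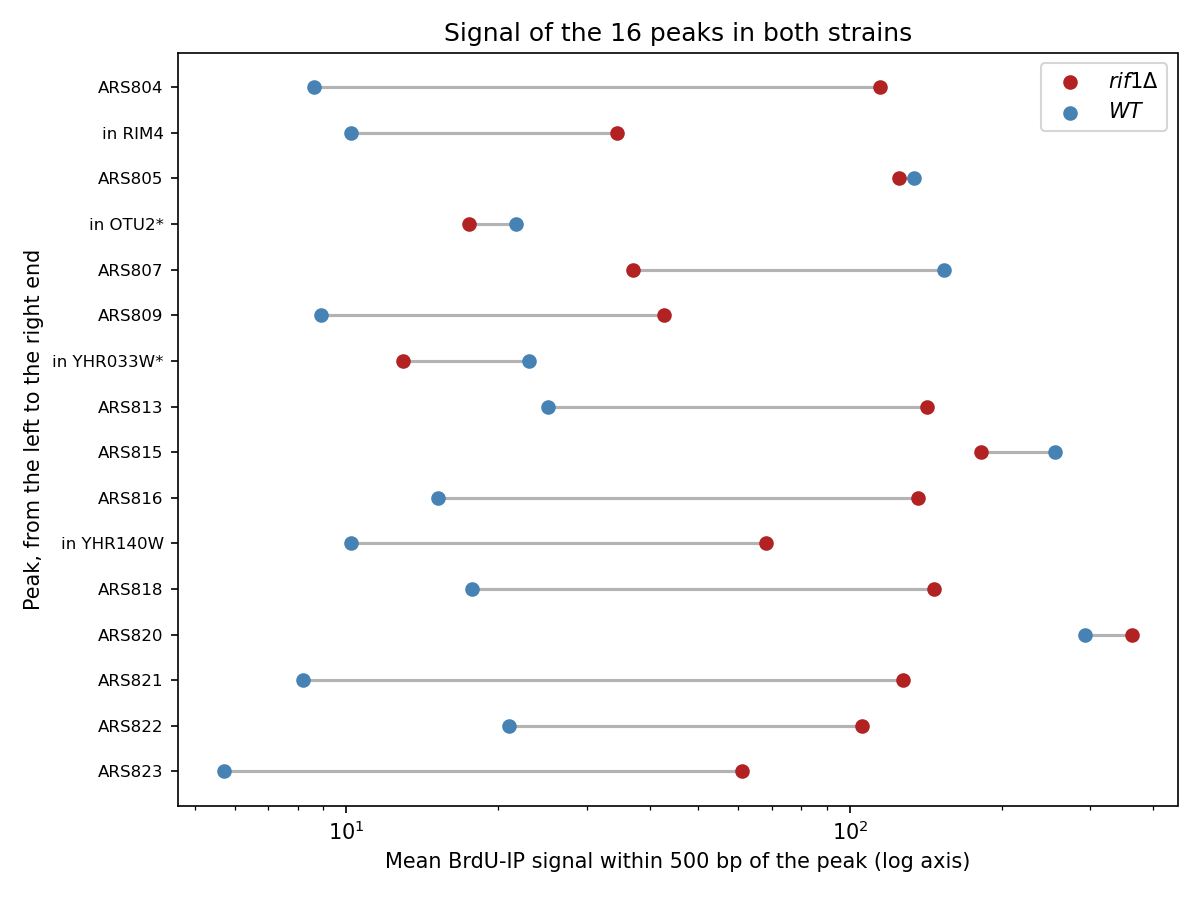
Mean BrdU-IP signal within 500 bp of each of the 16 peaks on a log axis, *rif1Δ* in red and *WT* in blue, with a line joining the strains and the peaks in order along the chromosome; an asterisk marks a peak with no listed origin. The 10 peaks more than 2-fold higher in *rif1Δ* have long lines, ARS807 alone has a long line the other way, and ARS805, ARS815 and ARS820 lie within 2-fold.

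ARS813 and ARS822 were called in both strains and were also more than 2-fold higher in *rif1Δ*. ARS813, at 245675 between *OSH3*, which encodes an oxysterol-binding protein, and *QNS1*, which encodes the glutamine-dependent NAD synthetase, had 142 in *rif1Δ* and 25.1 in *WT*, a log2 ratio of 2.45. ARS822, at 501875 between *PPX1*, the exopolyphosphatase gene, and *SMN1*, had 106 in *rif1Δ* and 21 in *WT*, a log2 ratio of 2.28. Both were close to the height of 20 that a peak needed in *WT*, with summit bins of 26.2 and 22.4 there, and neither was called in *WT* when that height was set at 40.

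The strongest peak in both strains was ARS820, at 447775 between *ATG7*, which encodes the E1-like enzyme of autophagy, and *SPC97*, which encodes a part of the γ-tubulin complex. It had 363 in *rif1Δ* and 292 in *WT*, a log2 ratio of 0.31. The next was ARS815, at 297175 between *HXT5*, a hexose transporter gene, and *PAL2*, with 182 in *rif1Δ* and 255 in *WT*, a log2 ratio of -0.48. On the left arm ARS805, at 64325 between *SPO11*, which makes the breaks that start meiotic recombination, and *AIM17*, had 125 in *rif1Δ* and 134 in *WT*, a log2 ratio of -0.09. ARS805 thus differed least, and the order of ARS820 over ARS815 over ARS805 was the same in both strains.

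ARS807 was the only peak of these arms more than 2-fold lower in *rif1Δ*. It had 37.1 in *rif1Δ* and 154 in *WT*, a log2 ratio of -2.02. By signal it ranked 13 of 16 in *rif1Δ* and 3 in *WT*, and it held 1.58% of the arm signal in *rif1Δ* and 7.97% in *WT* within 2 kb of its summit. ARS807 was the peak of the right arm nearest the centromere, 28.1 kb from the middle of the gene-free gap at CEN. Its summit at 133625 was the same in both strains and lay between 2 divergent tRNA genes, YNCH0004C, which ends at 133107, and YNCH0005W, which starts at 134321. A second listed origin without a name (134268 to 135517) was within 2 kb of this summit, so the peak could hold the signal of both.

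The signal beside ARS807 was lower in *rif1Δ* too. At 2 to 4 kb from the summit it was 3.36 in *rif1Δ* and 10.9 in *WT* on the left, and 6.81 in *rif1Δ* and 13.1 in *WT* on the right. The peak was also asymmetric in *rif1Δ*, where it fell to 50% of its height within 504 bp on the left and 1500 bp on the right. In *WT* those distances were 661 bp and 912 bp.

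Both *WT*-only peaks were low and had no listed origin within 2 kb. The peak in *OTU2*, at 78325, had 17.5 in *rif1Δ* and 21.7 in *WT*, a log2 ratio of -0.30. The peak in YHR033W, at 175925, had 12.9 in *rif1Δ* and 23.0 in *WT*, a log2 ratio of -0.79. In *rif1Δ* the highest bins there were 19.0 in *OTU2*, just under the height a peak needed, and 16.2 at the summit in YHR033W.

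The signals of the peaks at listed origins spanned a narrower range in *rif1Δ* than in *WT*, which the calling sets in part. All 14 of these peaks were called in *rif1Δ*, which asks for a height of at least 20, and 8 of them were not called in *WT*. The low end was thus bounded in *rif1Δ* alone, so the ranges and medians are not compared on equal terms. Over the 14 peaks at listed origins, the signal in *rif1Δ* ran between 34.4 and 363 with a median of 120, the highest being 10.6 times the lowest. In *WT* it ran between 5.71 and 292 with a median of 16.5, the highest being 51.2 times the lowest. Over all 16 peaks, with the low pair in *OTU2* and YHR033W, the highest was 28.1 times the lowest in *rif1Δ* and 51.2 times in *WT*. A signal over 100 was found at 9 of these peaks in *rif1Δ* and at 4 in *WT*. The share of all arm peaks over 100 was not worked out, so these counts only describe the profile. ARS805, ARS807, ARS815 and ARS820, taken as the strongest 4 in *WT*, held 41.2% of the summed peak signal in *rif1Δ* and 82.6% in *WT*, where the sums were 1718 and 1010. That choice largely set a larger share in *WT* in advance.

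Between the peaks the strains were alike in level. In the 6548 bins more than 5 kb from every peak (327.4 kb), the median signal was 3 in *rif1Δ* and 2.88 in *WT*. The 5th to 95th percentiles were 0.875 to 6.38 in *rif1Δ* and 1.38 to 5.50 in *WT*, so the *rif1Δ* profile was somewhat more uneven there. The bins within 2 kb of a peak, 13.4% of the arm, held 68.6% of the arm signal in *rif1Δ* and 59.6% in *WT*. Of the 16 peaks 8 were called in *rif1Δ* alone and 2 in *WT* alone. The larger share in *rif1Δ* was thus set in part by the calling. The mean over the arms was 11.2 in *rif1Δ* and 8.74 in *WT*.

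Distances between called peaks on the right arm were shorter in *rif1Δ*. Its 11 peaks there had a median spacing of 31.1 kb and a largest gap of 77.2 kb, between ARS809 and ARS813. The 6 peaks of *WT* had a median spacing of 54.1 kb and a largest gap of 150.6 kb, between ARS815 and ARS820. Inside that *WT* gap, 5 kb or more from either end, *rif1Δ* had 3 peaks, a mean signal of 9.63 and a highest bin of 151, while the mean in *WT* was 4.00 and the highest bin 17.9. Those 3 peaks were ARS816, the origin in YHR140W and ARS818. This gap was picked for having no called *WT* peak, so a low highest bin in *WT* was largely set in advance. The shorter spacing goes with the larger number of peaks called in *rif1Δ*, which depended on the height asked for.

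The difference between the strains was not spread evenly along the chromosome. The 4 peaks of the left arm had a summed signal of 292 in *rif1Δ* and 174 in *WT*, and 2 of them were more than 2-fold higher in *rif1Δ*. The 5 peaks from 125700, the inner edge of the right-arm member bins, out to ARS815 summed to 417 in *rif1Δ* and 466 in *WT*. Their median log2 ratio was -0.48, with 2 of them more than 2-fold higher in *rif1Δ* and 1 more than 2-fold lower. The 7 peaks beyond ARS815 summed to 1009 in *rif1Δ* and 370 in *WT*, with a median log2 ratio of 2.98, and 6 were more than 2-fold higher in *rif1Δ*. Of all arm peaks 40.4% were more than 2-fold higher. The split at ARS815 was not among the planned measures, so these groups of peaks only describe the profile. Over 11 segments of up to 50 kb counted outward from the centromere, the mean signal was higher in *rif1Δ* in 8, and more than 2-fold higher in 3, the fifth, sixth and eighth of the right arm. Among the 8, the second of the left arm, at 0.03, and the second of the right arm, at 0.06, differed by no more than the scaling could shift. No share over segments of the other chromosomes was worked out. The lowest log2 ratios of the segments were -0.76 in the fourth of the right arm, which holds ARS815, with a mean of 10.5 in *rif1Δ* and 18.5 in *WT*, and -0.65 in the first, which holds ARS807, with 6.37 in *rif1Δ* and 10.5 in *WT*.

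Peaks called in both strains kept their place and were mostly narrower in *rif1Δ*. The summits of the 6 differed by at most 100 bp between the strains. The width at 50% of the height was smaller in *rif1Δ* at 5 of the 6, or 83.3%, where it was smaller at 90.6% of the 181 arm peaks called in both strains, and the exception was ARS807. The median width of the 6 was 1723 bp in *rif1Δ* and 2138 bp in *WT*. ARS815 had a width of 1475 bp in *rif1Δ* and 2258 bp in *WT*, and ARS820 had 1840 bp in *rif1Δ* and 2170 bp in *WT*. The smoothing over 1 kb adds to all of these widths.

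The shoulders of the 4 strongest *WT* peaks were lower in *rif1Δ* on both sides, also at ARS807, which was wider in *rif1Δ*. At 2 to 4 kb to the left of ARS815 the signal was 9.54 in *rif1Δ* and 30.1 in *WT*, and to the right it was 8.59 in *rif1Δ* and 28.5 in *WT*, although the summits differed by less than 2-fold. Beside ARS805 it was 9.57 in *rif1Δ* and 15.8 in *WT* on the left, and 6.02 in *rif1Δ* and 19.3 in *WT* on the right. Beside ARS820, whose summit was higher in *rif1Δ*, the shoulders were lower there, with 34.5 in *rif1Δ* and 43.3 in *WT* on the left and 22.6 in *rif1Δ* and 31.8 in *WT* on the right. ARS813 and ARS822 went the other way, since they were narrower in *rif1Δ* but had higher shoulders there. Beside ARS813 the signal was 9.89 in *rif1Δ* and 3.89 in *WT* on the left and 8.34 in *rif1Δ* and 5.23 in *WT* on the right. Beside ARS822 it was 5.12 in *rif1Δ* and 4.08 in *WT* on the left and 5.51 in *rif1Δ* and 3.14 in *WT* on the right.

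**Figure D3:**
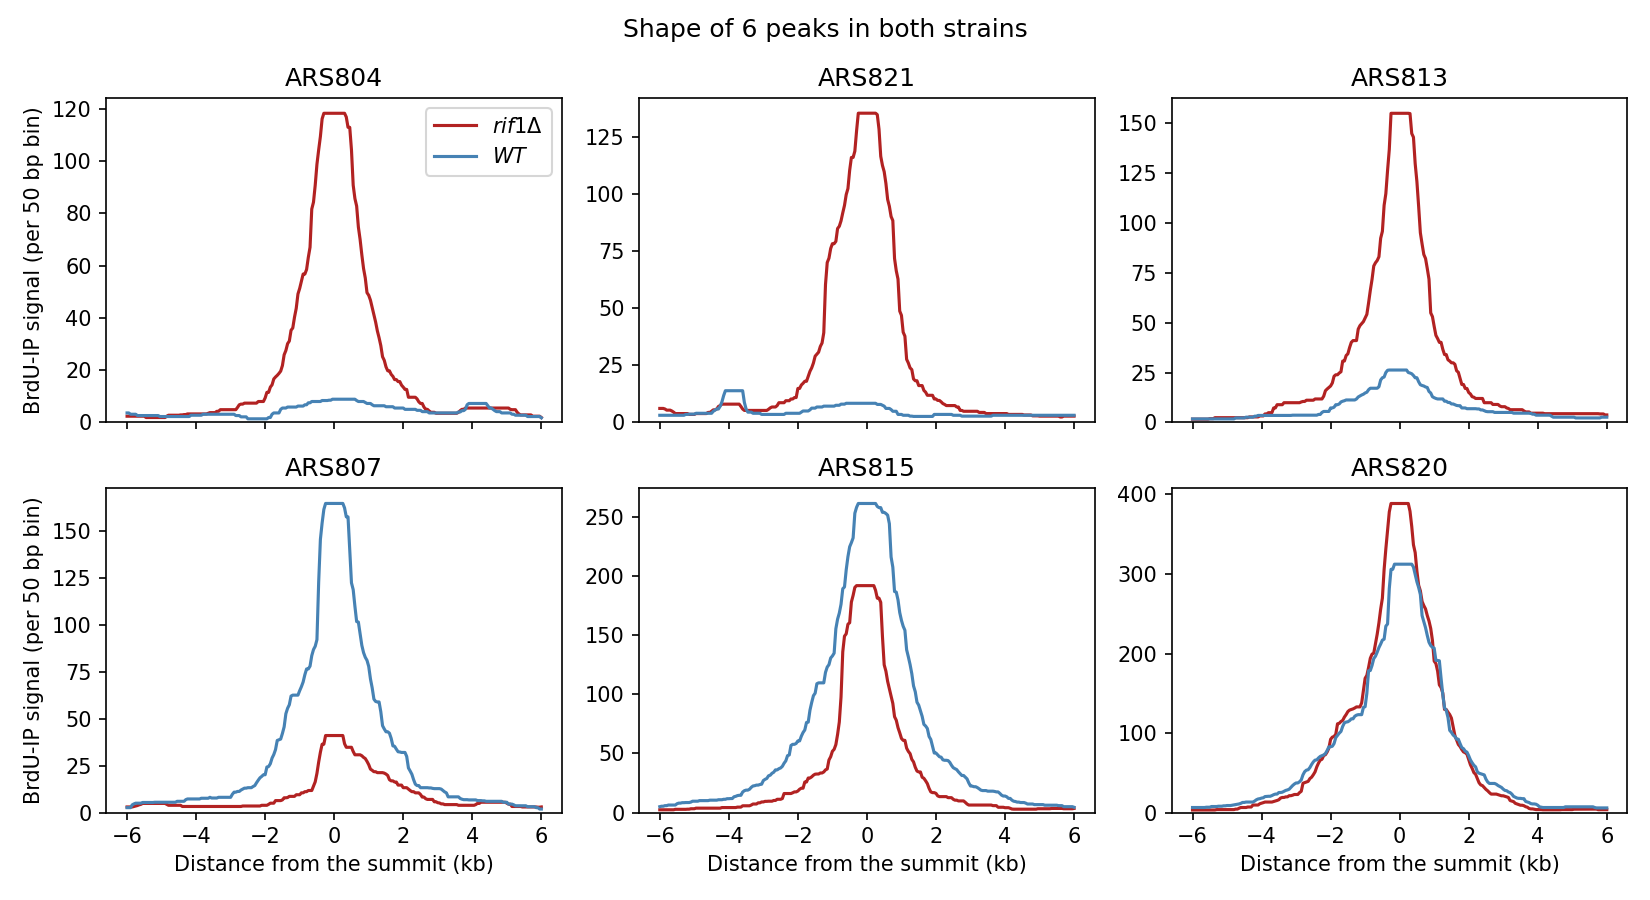
BrdU-IP signal per 50 bp bin within 6 kb of the summit at 6 peaks, *rif1Δ* in red and *WT* in blue, each panel on its own axis from 0. At ARS804, ARS821 and ARS813 the *rif1Δ* peak stands over a low *WT* profile, ARS807 is lower in *rif1Δ*, and the *WT* curves of ARS815 and ARS820 are broader at the base.

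All 15 listed origins of these arms, 12 named and 3 unnamed, lay within 2 kb of a peak, the farthest at 1268 bp. Measured at the origin midpoints in place of the summits, the signal was more than 2-fold higher in *rif1Δ* at 10 of the 15, or 66.7%, where 41.8% of all 392 listed origins were. The median log2 ratio at the 15 was 2.30, against 0.57 over all listed origins. Summits of the 14 peaks with a listed origin were between 3.5 and 486 bp from the nearest origin midpoint, with a median of 140 bp.

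Most peaks lay between genes. The summit was between genes at 10 of the 16 peaks, or 62.5%, while 25.6% of the arm bins lie between genes. Of these 10 gaps, 4 were between convergent genes, 4 between genes that run the same way and 2 between divergent genes. Of the 10 peaks more than 2-fold higher in *rif1Δ*, 6 were between genes and 4 inside a gene, namely ARS804, ARS809 and the origins in *RIM4* and YHR140W. A tRNA gene was within 2 kb of 4 peaks (25.0%, against 7.48% of the arm bins), and these were ARS805, ARS807, ARS816 and ARS821, which had log2 ratios of either sign.

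The copper-binding metallothionein genes *CUP1-1* and *CUP1-2* stand in tandem repeats on the right arm, and R64 holds 2 copies of a repeat whose number differs between strains, so the signal there also depends on the copies each strain carries and on how repeated reads were placed. Between 212409 and 215116 no peak was called in either strain. The median of the 54 bins was 0.25 in *rif1Δ* and 2.38 in *WT*, and 38 bins in *rif1Δ* and 0 in *WT* were at 1 or less. Over *CUP1-1* the mean was 0.333 in *rif1Δ* and 2.38 in *WT*, and over *CUP1-2* it was 0.917 in *rif1Δ* and 3.75 in *WT*. Whether the strains differ there in copy number, in mapping or in replication cannot be told apart from this profile.

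The low stretch in *rif1Δ* ran on past 215116, where the last annotated gene of the repeats ends. Up to 1.11 kb to the right of that point, mostly inside *RSC30*, a gene of the RSC chromatin remodelling complex, 23 bins in *rif1Δ* and 0 in *WT* were at 1 or less, with medians of 0.25 in *rif1Δ* and 2.38 in *WT*. From the start of *CUP1-1*, YHR054C begins at 0.65 kb, *CUP1-2* at 2.00 kb and *RSC30* at 2.65 kb. *RSC30* thus follows *CUP1-2* at the distance at which YHR054C follows *CUP1-1*. Whether this part of *RSC30* belongs to the repeated unit was not tested, so the limit given for the repeats holds here too. Over the whole of *RSC30* the mean was 2.18 in *rif1Δ* and 2.26 in *WT*. Within 10 kb of the repeats the median was 3 in *rif1Δ* and 2.69 in *WT*. Over *CIC1*, a ribosome biogenesis gene just to the left, the mean was higher in *rif1Δ*, with 9.92 in *rif1Δ* and 3.14 in *WT*.

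**Figure D4:**
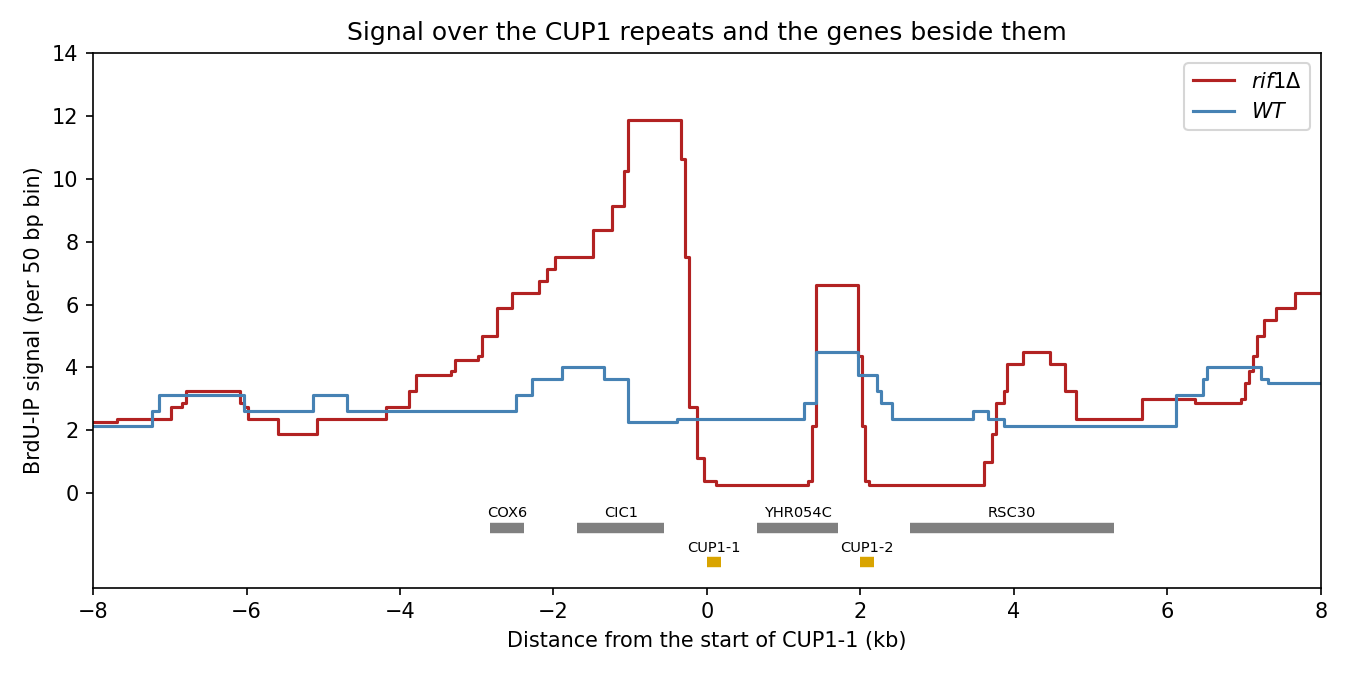
BrdU-IP signal per 50 bp bin around the *CUP1* repeats, *rif1Δ* in red and *WT* in blue, against distance from the start of *CUP1-1* in kb, with the genes as bars below. *rif1Δ* lies at 0.25 over most of the repeats and the start of *RSC30*, *WT* stays at 2.38 or more over the repeats, and *rif1Δ* is the higher strain over *CIC1*.

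Few bins of the arms had almost no signal. A signal of 1 or less was found in 355 bins (3.68%) in *rif1Δ* and in 284 (2.94%) in *WT*, 205 of them shared. The longest stretch at 1 or less in both strains ran over 8.75 kb, between 531750 and 540500 near the right end of the member bins, and the last segment of the arm had a mean of 0.848 in *rif1Δ* and 0.891 in *WT*. A low stretch of the opposite kind to *CUP1* was at *DOG2*, a 2-deoxyglucose-6-phosphate phosphatase gene, with 3.07 in *rif1Δ* and 0.25 in *WT*. *DOG2* has a close relative in the genome, *DOG1*, and the part of read placement in this value was not tested. Over *CIA2*, a gene of iron-sulphur protein assembly, the mean was 3.14 in *rif1Δ* and 1 in *WT*.

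Set beside the other chromosomes, the arms of chromosome VIII had the highest median log2 ratio of their peaks, 2.21, where the other 15 ran between -0.23 and 0.99. Their share of peaks more than 2-fold higher in *rif1Δ*, 62.5%, was also the highest, with 16.7% to 50.0% on the others. The log2 ratio of the mean arm signal was 0.33, against -0.31 to 0.29. By listed origins in place of peaks chromosome VIII came second, with 2.30, against 3.10 on chromosome VI, so the first place depended on which sites were taken. No test was made of this order, since each strain has 1 averaged profile and the peaks of a chromosome share it.

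The strongest peak of the chromosome VIII arms ranked low among the strongest arm peaks of the 16 chromosomes. ARS820, their strongest, had 363 in *rif1Δ*, which ranked 15 of the 16 chromosomes' strongest arm peaks. Its *WT* signal of 292 was the lowest of the 16, where the strongest *WT* peaks of the other chromosomes had between 335 and 640.

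**Figure D5:**
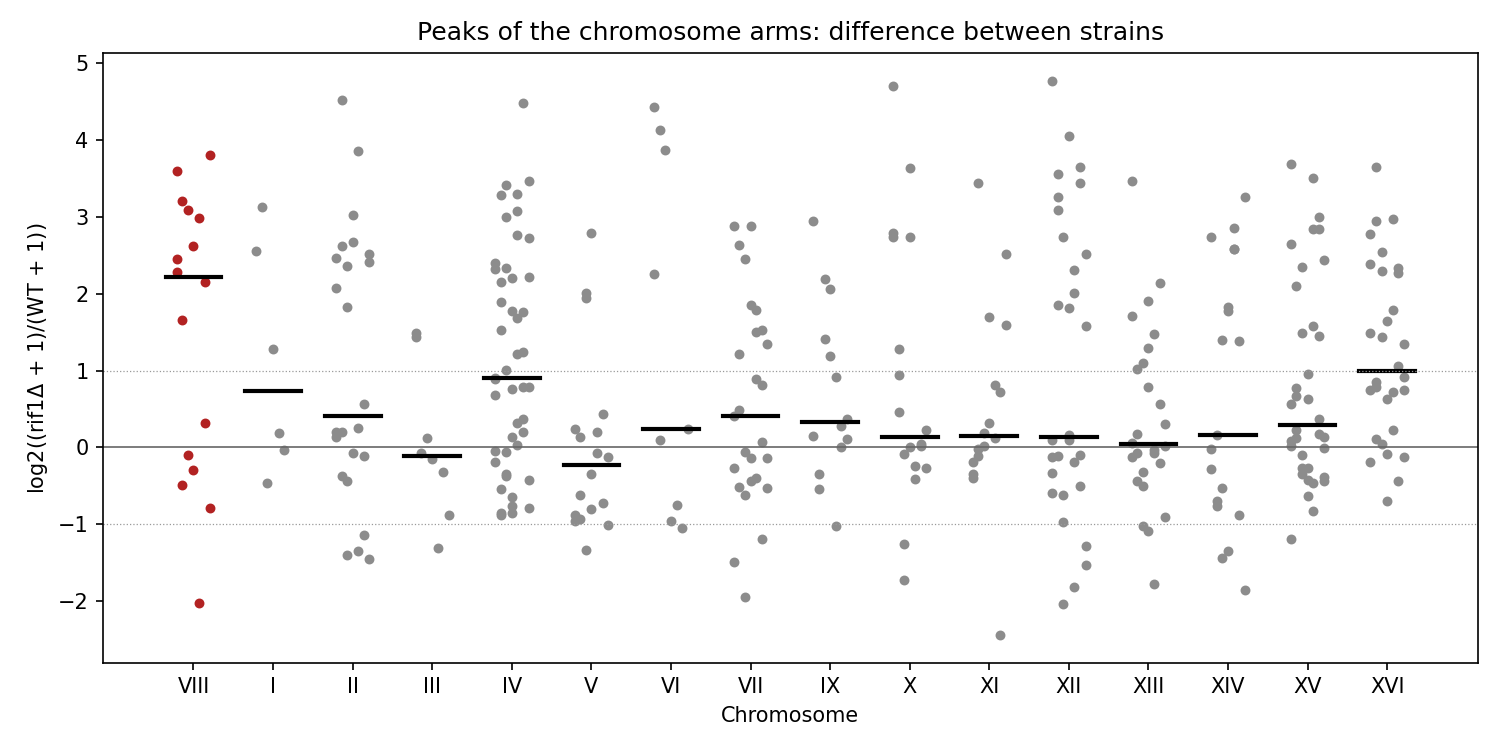
log2((*rif1Δ* + 1)/(*WT* + 1)) at every peak of the arms of the 16 chromosomes, 1 point per peak, with the median of each chromosome as a bar and chromosome VIII first. Chromosome VIII has the highest median, 2.21, and its single point below -1 is ARS807.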

How the data were processed

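BrdU-IP-Seq signal was analysed for *rif1Δ* and *WT*, each 2 libraries. The authors split the barcodes of paired 50 bp reads with the FASTX toolkit, trimmed 10 bp, aligned with Bowtie2 to release R64, counted coverage in 50 bp bins, median-smoothed it over 1 kb, made the replicates equal by quantiles, averaged them and smoothed once more. What they deposited is that coverage signal, with 1 column for each strain. Averaging removes the replicate error, smoothing lowers and widens narrow peaks, and depth and scaling between strains are not given in the sources used here.

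The members and lists were chosen with earlier results of these data known. Peaks of the strains within 1.5 kb were merged at the higher summit. Log2 ratios used a pseudocount of 1. Origins within 2 kb came from the positions listed by the study, and their classes were not used. Genes came from the R64 gene table. Every peak and listed origin was accounted for, and those that reached 50 in either strain were described with both values and their flanking genes. Arms of the other chromosomes left out 20 kb at each end and 20 kb on either side of the gap between the innermost genes. The measures were tested on simulated profiles of strong, well separated peaks, which does not cover weak peaks or peaks with close neighbours. Alternatives changed the peak height, window, pseudocount, scaling, width level and sites, one by one. The tools were Python 3.11.15, numpy 2.4.6, scipy 1.17.1, pandas 2.3.3 and matplotlib 3.10.9.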

Additional observations from a re-analysis of the deposited data

Results flagged for a closer look

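The arms held 6 low local maxima, with a height of at least 10 but under the 20 that a peak needed. At 4 of them the signal was higher in *rif1Δ* than in *WT*, and at the others, given further below, it was higher in *WT*. No share over the other chromosomes was worked out. Of the 4, 3 were called in *rif1Δ*, and that in *SNF6* was called in *WT* alone. In *SNF6*, a gene of the SWI/SNF chromatin remodelling complex, at 55525, the signal was 14.6 in *rif1Δ* and 12.7 in *WT*. This maximum lay within 2 kb of the peak in *RIM4*, so it was not clearly apart from that peak. In *CIC1*, beside the *CUP1* repeats at 211825, it was 10.7 in *rif1Δ* and 2.54 in *WT*. Between *RTT107*, which encodes a scaffold protein of DNA repair, and *LAM1*, at 406425, it was 13.4 in *rif1Δ* and 7.65 in *WT*. In *KEL1*, a kelch repeat gene, at 413825, it was 13.5 in *rif1Δ* and 6.04 in *WT*. These values had no replicate check, and what lies behind them was not tested.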

How the results depend on the processing

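Of 112 log2 ratios of single peaks under other settings, 98 moved by no more than 0.5, 14 moved by more and 0 changed sign among those called. Of 73 summary values, 64 stayed within their tolerance and 9 did not. With a peak height of at least 10, *WT* had 15 peaks, the median log2 ratio was 1.35, and 2 peaks were more than 2-fold lower in *rif1Δ*. With a height of at least 40, *WT* had 4 peaks, and the chromosome VIII arms were in place 2 of 16 by median log2 ratio, 2.45 behind 3.07 on chromosome VI. A pseudocount of 10 gave a median log2 ratio of 1.69. Widths at 25% of the summit were 2727 bp in *rif1Δ* and 3864 bp in *WT*, larger by construction. With listed origins in place of peaks, an alternative chosen after seeing the data, the arms were again in place 2. The cause of the other moves was not tested. The mean within 2 kb took the peak in *RIM4* to a log2 ratio of 0.98 and left 9 peaks more than 2-fold higher in *rif1Δ*. With a height of at least 10 that number was 12, and with 40 it was 9. Equal totals, equal levels between peaks and leaving out the *CUP1* repeats changed no call. No paired analysis was possible because each strain has only the mean of its libraries, and for the same reason no replicate could be left out. The unknown depth and the smoothing limit what can be said of weak or narrow peaks.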

Other observations

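At 2 further low maxima of the chromosome VIII arms *WT* was the higher strain. In *SRB2*, a Mediator gene, at 189475, the signal was 6.14 in *rif1Δ* and 14.3 in *WT*. Between *RGD3* and *GND1*, which encodes a dehydrogenase of the pentose phosphate pathway, at 470725, it was 7.02 in *rif1Δ* and 10.5 in *WT*.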
